A study of Mus musculus with 8 samples.

Results

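Syt17, St6galnac5, Ptpru and Strip2 are 4 of the 26711 features counted by single-nucleus RNA-seq in the mouse primary visual cortex (V1). They were chosen by the difference in their UMI counts between dark-reared (DR) and normal-reared (NR) control mice, which passed the test in a single direction in 7 of 8 types of excitatory neuron. Syt17, St6galnac5 and Ptpru were higher after dark-rearing and Strip2 was lower. Because these DR and NR control libraries chose the genes, their differences are given below as a description without a test, and the same contrast was tested in the libraries of the other genotype, which the choice did not use. All mice were at postnatal day 21 and carried loxP-flanked alleles of Nr3c1, the gene of the glucocorticoid receptor (GR fl/fl). At birth they received an AAV2/5 vector whose GfaABC1D promoter is active in astrocytes. The vector encoded Cre with EGFP in GR-KO mice and ΔCre, an inactive Cre, with EGFP in GR-Con mice. DR animals lived in constant darkness until collection. Each of the 4 combinations of rearing and vector had 2 libraries, 1 male and 1 female, which are referred to by those labels.

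Light reaching the eyes after eye opening drives activity in V1, and rearing in darkness is a classical way to withhold it while the layers of excitatory neurons (L2/3 to L6b) mature. Syt17 encodes an atypical synaptotagmin with paired C2 domains and no transmembrane segment, also known as the B/K protein. St6galnac5 encodes a sialyltransferase that adds sialic acid to gangliosides, the sialylated glycolipids that are abundant on neurons. Ptpru encodes a receptor-type tyrosine phosphatase with a MAM domain, of the family that takes part in cell adhesion. Strip2 encodes a striatin-interacting protein of the STRIPAK complex, which joins protein phosphatase 2A to kinases.

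On GRCm38, with the GENCODE vM21 annotation, Syt17 lies on chromosome 7 (118380717 to 118448222, minus strand), St6galnac5 on chromosome 3 (152817081 to 152982246, minus strand), Ptpru on chromosome 4 (131768457 to 131838288, minus strand) and Strip2 on chromosome 6 (29917012 to 29959681, plus strand). St6galnac5 overlaps Pigk, a protein-coding gene, the antisense genes Gm16213 and Gm16231 and the unclassified Gm42710 on the opposite strand, and the processed pseudogene Gm16232 on its own strand, and the other 3 members overlap no annotated gene. RefSeq promoter windows (250 bases before to 50 bases after the start of the gene, GRCm38.p6) were at hand for 2 of the 4 members, Ptpru and Strip2. They are shown because both genes differed with rearing across the layers, in opposite directions. Capitals mark the cAMP response element (CRE, TGACGTCA), a palindrome bound by CREB-family factors that neuronal activity regulates.
Ptpru, chr4:131838229-131838528, minus strand: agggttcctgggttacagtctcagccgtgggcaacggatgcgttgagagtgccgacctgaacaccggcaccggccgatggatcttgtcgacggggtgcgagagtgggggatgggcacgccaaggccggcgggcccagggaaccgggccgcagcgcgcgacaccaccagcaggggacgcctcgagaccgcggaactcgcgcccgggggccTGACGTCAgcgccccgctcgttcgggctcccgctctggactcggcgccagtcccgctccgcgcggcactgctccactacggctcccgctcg
Strip2, chr6:29916763-29917062, plus strand: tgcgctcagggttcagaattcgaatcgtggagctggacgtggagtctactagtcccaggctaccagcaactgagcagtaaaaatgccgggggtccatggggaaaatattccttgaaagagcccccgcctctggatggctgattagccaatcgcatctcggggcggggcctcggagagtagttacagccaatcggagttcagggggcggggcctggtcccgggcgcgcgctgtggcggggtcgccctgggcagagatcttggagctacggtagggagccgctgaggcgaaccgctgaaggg
The CRE was found once in the Ptpru window, starting 41 bases before the start of the gene, and not in the Strip2 window. It occurred in 1.79% of 32851 promoter windows of the same length. The AP-1 site (TGANTCA, in 7.81% of windows), the EGR consensus (0.612%), the E-box (CACGTG, 7.15%) and the palindromic glucocorticoid response element (0.00913%) were searched on both strands and were found in neither window.

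The 8 libraries held 102330 nuclei (9517 to 15161 each) with a median of 14861 to 29223 UMIs per nucleus. In GR-KO mice the NR libraries were deeper (medians of 22827.5 and 29223 UMIs, male and female) than the DR libraries (14928.5 and 14861). Of 101098 barcode sequences, 1220 occurred in more than 1 library, in 2452 nuclei. Of 58 cell type markers, 48 were highest in the type they mark, but this held for only 14 of the 24 markers of single excitatory types and for 0 of the 3 L6IT markers. The Cre feature held 190 to 1054 UMIs in the 4 GR-KO libraries and 0 UMIs in each GR-Con library, while the ΔCre feature held 41 to 83 UMIs in the GR-Con libraries and 140 to 785 UMIs in the GR-KO libraries. Nr3c1 in astrocytes was at 207 to 263 CPM (UMIs scaled to a fixed library total) in GR-Con and at 268 to 284 CPM in GR-KO, a count over the whole gene that does not show the deletion. In both GR-KO groups the male lay on the DR side of the female (higher for Syt17, St6galnac5 and Ptpru, lower for Strip2) in most pairs of gene and excitatory type, 26 of 32 in NR and 28 of 32 in DR, against 12 of 32 in NR GR-Con and 14 of 32 in DR GR-Con. The NR GR-KO male also held 840 Cre UMIs in excitatory nuclei (3.7 CPM), against 0.745 to 1.21 CPM in the other GR-KO libraries. The part of that library's depth and vector reads in the results was not tested. For the tests of the members in GR-KO, calls gained or lost without it are given below, for excitatory types as counts. A fit without 1 library leaves its group with a single library, which has no spread of its own and is assumed to vary like the pair in the other group, so such values show how far a result rests on the library left out and are not a second test of it.

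In the GR-Con libraries that chose the genes, 28 of 32 pairs of gene and excitatory type passed an adjusted p under 0.05 (edgeR likelihood ratio test), 21 of them higher in DR and 7 lower. Over all genes tested in the 8 types, 2.17% of pairs passed as higher and 1.35% as lower. Other genes that passed in 7 or more excitatory types in a single direction included Osbpl3 in 8 and Arhgef28 and Hbb-bs in 7. In the type with the weakest evidence among those that passed, log2 fold changes were 2.43 for Syt17 (L5NP), 1.64 for St6galnac5 (L5PT), 1.96 for Ptpru (L5PT) and -1.41 for Strip2 (L6b). In the single type that did not pass they were 0.51 (L6b), 0.80 (L6IT), 0.44 (L6IT) and -0.82 (L5PT). Levels (CPM) are the UMIs of a gene summed over the nuclei of a type in a library and scaled to a fixed total, and male and female values are given in that order. In summed nuclei, more RNA per nucleus and more nuclei with the RNA cannot be told apart. Markers of non-neuronal cells summed to 74.5 to 156 CPM in the excitatory types of NR GR-Con and 62.2 to 144 CPM in DR GR-Con, and their part in the results was not tested.

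Syt17 was most abundant in L2/3 and rose from low levels in L4 and L5IT. In L2/3 of GR-Con it was at 65.9 and 74.6 CPM in NR and at 129 and 144 CPM in DR. In L4 it was at 2.71 and 2.29 CPM in NR and at 49 and 17.4 CPM in DR, a log2 fold change of 3.75 ± 0.52 (SE). In L5IT the NR libraries were at 5.77 and 6.68 CPM and the DR libraries at 65.2 and 46.6 CPM. The DR libraries lay above the NR libraries in 7 of 8 types, L6b being the exception, as 22.7% of all gene and type pairs did. In L5NP, L6CT and L6b, however, the level did not exceed 5.3 CPM in any library, and oligodendrocytes, which lack neuronal programmes, held 0.551 to 3.01 CPM.

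St6galnac5 moved most in the type where it was nearly absent under normal rearing. In L2/3 of GR-Con it was at 6.31 and 5.55 CPM in NR and at 130 and 43.9 CPM in DR, a log2 fold change of 3.84 ± 0.54. In L5IT, where it was highest among the excitatory types, it went from 305 and 287 CPM in NR to 681 and 491 CPM in DR. In L6CT it went from 116 and 147 CPM to 267 and 294 CPM. The DR libraries lay above the NR libraries in 8 of 8 types.

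Among excitatory types Ptpru was highest in L5NP, L6IT and L6CT. In L5NP of GR-Con it was at 38.5 and 45.5 CPM in NR and at 67.7 and 65.9 CPM in DR, and in L6CT at 24 and 24.4 CPM in NR and at 38.3 and 80.6 CPM in DR. The greatest fold change was in L5IT, from 3.53 and 4.42 CPM to 16.5 and 21.1 CPM (log2 fold change 2.24 ± 0.25). No type overlapped between DR and NR in GR-Con.

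Strip2 was the only member that fell. In L6CT of GR-Con it was at 25.5 and 27.9 CPM in NR and at 7.25 and 6.27 CPM in DR, a log2 fold change of -1.98 ± 0.19. In L6IT it went from 33.3 and 36.2 CPM to 12.4 and 8.15 CPM, and in L2/3 from 33.5 and 32.9 CPM to 18.9 and 12.1 CPM. The DR libraries lay below the NR libraries in 8 of 8 types, as 21.4% of all pairs did. In L5PT, where it was scarce, no library exceeded 1.56 CPM.

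**Figure D1:**
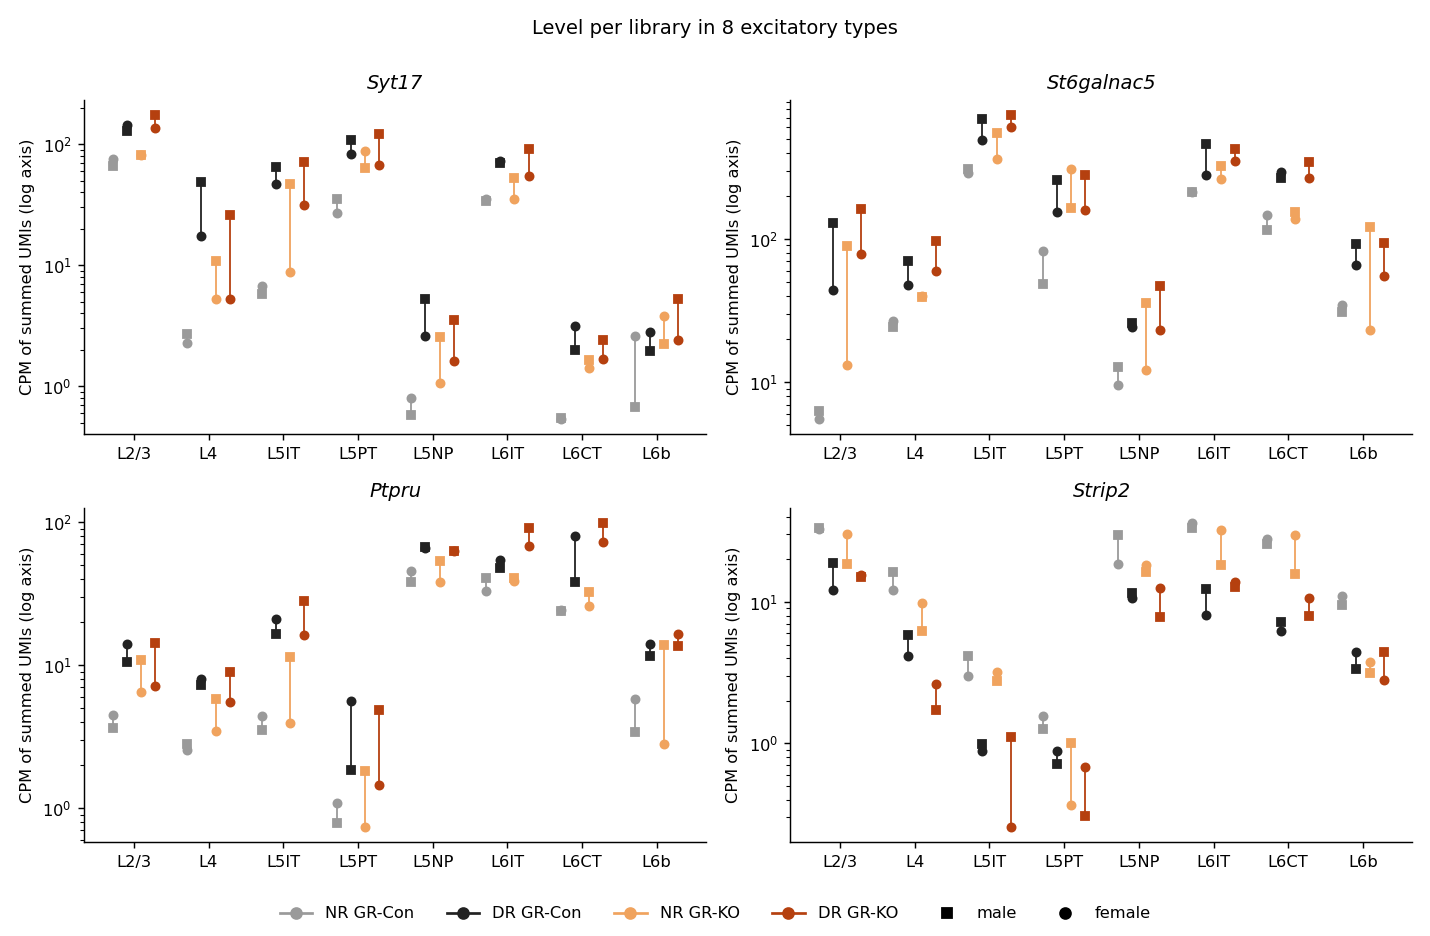
CPM of each gene (log axis, its own range per panel) in 8 excitatory types, 1 point per library (squares male, circles female), with lines joining the 2 libraries of a group. In GR-Con the grey NR and black DR points separate in 31 of the 32 pairs, while in GR-KO the NR male square often lies near the DR points, as for St6galnac5 in L2/3 (89.8 CPM against 13.3 CPM in the NR female).

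The GR-KO libraries answered whether the difference holds in animals that did not enter the choice. Of the 28 pairs with enough counts to be tested, 8 passed an adjusted p under 0.05, 5 higher and 3 lower in DR, all in the direction seen in GR-Con. The share of all gene and type pairs that passed was 2.22% for higher and 2.15% for lower. The estimate had the GR-Con direction in 27 of 28 pairs, the exception being St6galnac5 in L5PT (-0.10 ± 0.39). Syt17 in L6CT, which was at the level of oligodendrocytes, was among the 27. An unadjusted p under 0.05 (edgeR likelihood ratio test) was found for 17 of the 28. The shares over all genes are not given for direction or for unadjusted p. The 28 pairs come from the same 4 libraries and are not separate tests. Without the NR GR-KO male, with the female alone standing for NR and the spread taken from the DR pair, 21 of 31 pairs passed (16 higher, 5 lower), where 4.16% of all pairs passed as higher and 3.42% as lower, among them the 8 that passed with it, whose values were then 0.94 for Syt17 in L2/3, 1.02 and 1.16 for St6galnac5 in L4 and L6CT, 1.04 and 1.74 for Ptpru in L6IT and L6CT, and -2.07, -2.26 and -1.64 for Strip2 in L4, L5IT and L6CT. Without the DR GR-KO male, 6 of 29 pairs passed (4 higher, 2 lower), where 0.325% of all pairs passed as higher and 0.321% as lower, and 22 of 29 had the GR-Con direction. With the edgeR quasi-likelihood test 2 of 28 passed, St6galnac5 and Ptpru in L6CT (both just under the threshold), where 0.191% of all pairs passed as higher and 0.0863% as lower. With sex as a term 17 of 28 passed, where 4.05% of all pairs passed as higher and 3.82% as lower. Syt17 in L5NP and L6b and Strip2 in L5PT and L6b had too few counts. The non-neuronal markers summed to 67.8 to 188 CPM in the excitatory types of NR GR-KO and 82.6 to 199 CPM in DR GR-KO, and the inhibitory markers to at most 9.08 CPM.

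In GR-KO, Syt17 passed in L2/3 alone. There it was at 81.1 and 82 CPM in NR and at 174 and 137 CPM in DR, with every DR library above every NR library (log2 fold change 0.97 ± 0.18, adjusted p = 1.2e-05, edgeR likelihood ratio test, as for the values that follow). In L2/3, 4.25% of genes passed as higher. In L5IT the NR male (46.9 CPM) and NR female (8.77 CPM) lay far apart, and the DR libraries were at 70.9 and 31.4 CPM. The estimate there was 0.89 (95% interval -0.51 to 2.29, adjusted p = 0.78) and was 2.52 without the NR male (adjusted p = 1.1e-06). In L4 the DR female (5.27 CPM) equalled the NR female (5.27 CPM) while the DR male was at 25.9 CPM, and the estimate of 1.00 had an interval of -0.37 to 2.37. Without the DR male it turned to -0.52.

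St6galnac5 passed in L4 and L6CT of GR-KO. In L6CT it was at 155 and 138 CPM in NR and at 345 and 265 CPM in DR (1.07 ± 0.19, adjusted p = 1.9e-06, in a type where 3.69% of genes passed as higher). In L4 it was at 39.1 and 40 CPM in NR and at 96.2 and 59.5 CPM in DR (1.03 ± 0.23, adjusted p = 8.8e-04, with 2.68% of genes passing as higher), and without the DR male it was 0.68 (adjusted p = 0.12). In both types the NR libraries were close together and below both DR libraries. In L2/3 they were not: NR was at 89.8 and 13.3 CPM and DR at 161 and 78.2 CPM, so that the groups overlapped (1.27, 95% interval -0.35 to 2.90, adjusted p = 0.39). Set against the NR female alone, the lowest of the 4 libraries, the L2/3 estimate was 3.18 (adjusted p = 1.4e-07, with the spread taken from the DR pair).

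Ptpru passed in L6CT and L6IT of GR-KO. In L6CT it was at 32.8 and 26.1 CPM in NR and at 99.1 and 73.3 CPM in DR (1.56 ± 0.21, adjusted p = 9.3e-11). In L6IT, where 2.78% of genes passed as higher, it was at 40.9 and 38.6 CPM in NR and at 91.4 and 67.9 CPM in DR (1.02 ± 0.17, adjusted p = 1.5e-06). L6IT was the only type in which this gene did not pass in GR-Con. In L5IT the estimate was 1.54 ± 0.50 (adjusted p = 0.078), and 2.48 without the NR male (adjusted p = 9.7e-09).

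Strip2 passed as lower in L4, L5IT and L6CT of GR-KO, types in which 2.79%, 0.972% and 3.25% of genes passed as lower. In L4 it was at 6.28 and 9.76 CPM in NR and at 1.72 and 2.61 CPM in DR (-1.80 ± 0.32, adjusted p = 5.4e-06). In L6CT it was at 15.8 and 29.8 CPM in NR and at 7.97 and 10.7 CPM in DR (-1.26 ± 0.35, adjusted p = 0.0088). In L5IT, with 2.75 and 3.22 CPM in NR against 1.11 and 0.257 CPM in DR, the estimate was -2.12 ± 0.52 (adjusted p = 0.0061). This rests on 45 and 32 UMIs in NR and on 8 and 2 UMIs in DR, and oligodendrocytes of NR GR-KO held 0.77 and 3.15 CPM. In GR-KO the DR libraries lay above the NR libraries in 3 of 8 types for Syt17 (L2/3, L6IT and L6CT, the last at background level), 4 of 8 for St6galnac5 and 4 of 8 for Ptpru (21.5% of all pairs) and below them in 6 of 8 types for Strip2 (29.2% of all pairs). The L6CT call was lost without the DR male (-1.03, adjusted p = 0.36) and the L5IT call without the DR female (-1.41, adjusted p = 0.64), and without the DR male the L5IT value was -3.45. L6IT missed the threshold (-0.91 ± 0.30, adjusted p = 0.0503) and passed without the NR male (-1.29, adjusted p = 4.1e-13).

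**Figure D2:**
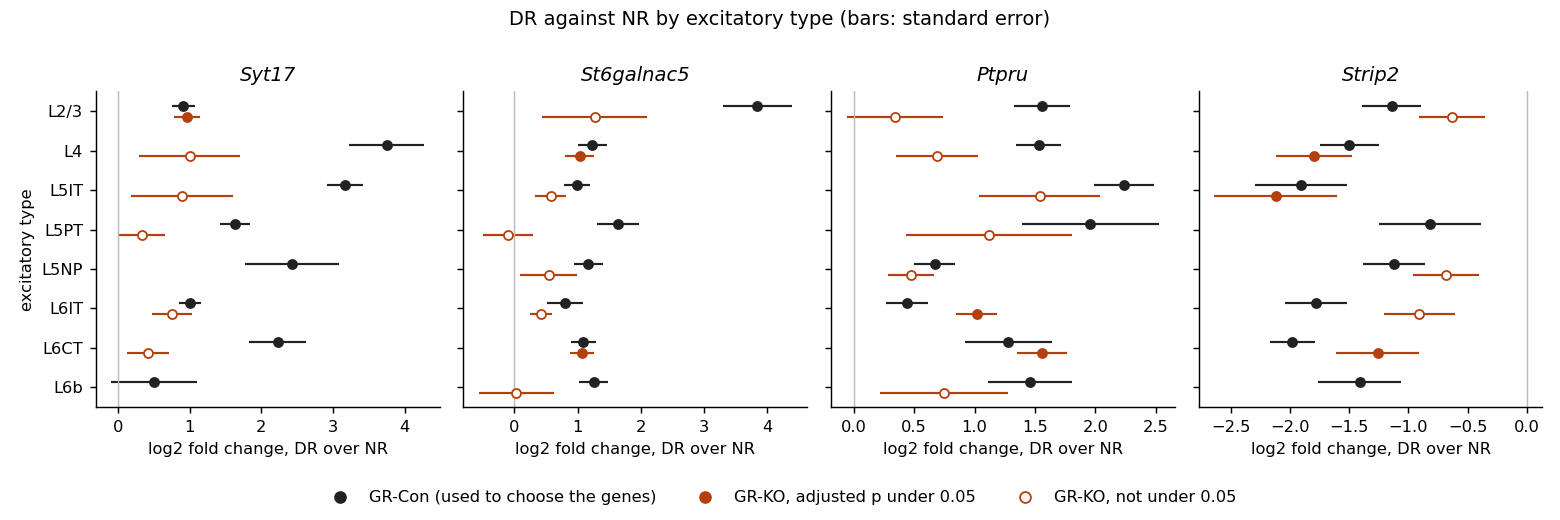
Log2 fold change of DR over NR with its standard error by excitatory type (the horizontal scale differs between panels), in GR-Con (black, the contrast that chose the genes) and GR-KO (filled where the adjusted p was under 0.05, open where not). Of the 28 GR-KO points, 27 lie on the same side of 0 as their GR-Con points, and 8 are filled. The share of all genes on the same side is not given.

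Whether the DR difference varied between excitatory types was tested in GR-KO by a model over all 8 types with a term for each library. Strip2 varied (adjusted p = 7.3e-05, likelihood ratio test). The separate fits by type covered 6 of the 8 types for this gene. Their estimates ran from -2.12 in L5IT and -1.80 in L4 to -0.63 in L2/3 and -0.68 in L5NP. The L5IT level was near that of oligodendrocytes. In L6b, which had too few counts for a separate fit, the mean was 3.46 CPM in NR and 3.64 CPM in DR. The share of genes that passed this test was 6.22%. The Strip2 result held without any single library (adjusted p at most 0.021) but not by the quasi-likelihood test (adjusted p = 0.1). For Ptpru, St6galnac5 and Syt17 the adjusted p was 0.19, 0.74 and 0.99. These values turned on single NR libraries. Against the NR GR-KO female alone they were 0.0014, 3.4e-29 and 0.016, and against the NR GR-KO male alone 0.014, 8.4e-07 and 0.94, in fits that hold no spread between NR animals, and no difference between types is read from them.

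Excitatory neurons were then set against inhibitory neurons of the same GR-KO libraries. Syt17 summed over excitatory types was at 42.3 and 36 CPM in NR and at 93.9 and 60.5 CPM in DR. Summed over inhibitory types it was at 36 and 35.4 CPM in NR and at 39.5 and 36.4 CPM in DR. The classes had similar levels in NR, and the DR libraries stood well above NR in the excitatory sum and just above it in the inhibitory sum. The excitatory sum was mostly L2/3, with 6049 to 9175 Syt17 UMIs per GR-KO library. No other excitatory type held more than 1194. Whether the difference between the classes holds outside L2/3 was not tested. The excitatory log2 fold change exceeded the inhibitory one by 0.87 ± 0.19 (adjusted p = 0.0014, edgeR likelihood ratio test, where 2.05% of genes passed). This was 0.98 without the NR GR-KO male (adjusted p = 6.8e-05) and 0.62 without the DR GR-KO male (adjusted p = 0.14), and the quasi-likelihood test gave an adjusted p of 0.23. In GR-Con the inhibitory sum of Syt17 was at 30.8 and 33.3 CPM in NR and at 43.5 and 42.6 CPM in DR. For Strip2 the difference was -0.65 ± 0.26 (adjusted p = 0.25), and it was greater in size and passed without the NR GR-KO male (adjusted p = 1.3e-05). The differences of St6galnac5 (0.34, 95% interval 0.07 to 0.60, adjusted p = 0.26) and Ptpru (0.31, -0.17 to 0.78, adjusted p = 0.8) did not pass, although Ptpru did without the DR GR-KO female (0.69, adjusted p = 0.026).

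Outside the excitatory types, 2 of 31 pairs passed in GR-KO, both St6galnac5 and both higher in DR, where 1.12% of such pairs passed as higher over all genes. In Lamp5 interneurons it was at 26.6 and 15.9 CPM in NR and at 56.7 and 34.4 CPM in DR (1.15 ± 0.28, adjusted p = 0.007). In VLMC, fibroblast-like cells of the meninges and vessels, with 20 and 47 nuclei in NR, it was at 83 and 55.8 CPM in NR and at 135 and 250 CPM in DR (1.28 ± 0.42, adjusted p = 0.014). Neither passed by DESeq2 (adjusted p = 0.066 and 0.2). The Lamp5 call was lost without the DR GR-KO male (0.76, adjusted p = 0.3) and without the NR GR-KO female (0.86, adjusted p = 0.11). The VLMC call was lost without the DR GR-KO female (0.71, adjusted p = 0.46) and without the NR GR-KO female (1.02, adjusted p = 0.067). Without the NR GR-KO male, with 1 NR library left, the values were 1.58 and 1.51, and St6galnac5 also passed as higher in Pvalb (0.80, adjusted p = 5.7e-05), Sst (0.59, adjusted p = 0.01) and Vip interneurons (1.11, adjusted p = 4.2e-11), as did Ptpru in Vip interneurons (1.49, adjusted p = 6.1e-06). Without the DR GR-KO male, St6galnac5 passed as higher in endothelial cells (1.79, adjusted p = 0.0041). St6galnac5 in OPC had the opposite sign (-1.36, adjusted p = 0.069), and passed as lower with a sex term (-1.30, adjusted p = 0.029) and without the NR GR-KO female (-1.84, adjusted p = 7.9e-04). Without that female Syt17 also passed as lower in Sst interneurons (-0.90, adjusted p = 0.0021) and VLMC (-3.26, adjusted p = 1.5e-04), and Ptpru as higher in Sst interneurons (0.56, adjusted p = 0.04). The shares of all genes that passed in these other settings are not given, so the calls show only how far results rest on single libraries and settings. In astrocytes, which hold the most St6galnac5, the DR difference was 0.09 (95% interval -0.25 to 0.43).

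The cell type with the highest level differed between the 4 genes, but most neighbouring types in each order overlapped. Under normal rearing (4 libraries, both genotypes) Syt17 was highest in L2/3 at 75.9 ± 7.41 CPM (SD), followed by Vip interneurons (59.6 ± 9.83) and L5PT (53.4 ± 27.8, with group means of 31 in GR-Con and 75.7 in GR-KO), and lowest in L6CT (1.04 ± 0.576). The only neighbours in its order whose ranges did not overlap were Lamp5 (10.6 CPM) and OPC (5.86 CPM). St6galnac5 was highest in astrocytes (613 ± 169 CPM), then L5IT (374 ± 118), L6IT (251 ± 52.2), Sst (249 ± 64.5, in GR-Con at 259 and above the 211 of L6IT) and Pvalb (210 ± 42.8), and lowest in oligodendrocytes (5.64 ± 3.89), with no neighbours apart. Ptpru was highest in Sst interneurons (92.7 ± 14.1 CPM), apart from L5NP (43.8 ± 7.2) and L6IT (38.5 ± 3.64), and lowest in L5PT (1.11 ± 0.501). Strip2 led in L6IT (30 ± 8.13), L2/3 (28.8 ± 7), L6CT (24.7 ± 6.22) and L5NP (20.7 ± 6.14), which overlapped with each other and lay apart from Vip interneurons (12.9 ± 2.47). The type with the highest level differed between the members, while L6IT was among the 5 highest types of each. Across the 64 sums of 8 excitatory types and 8 libraries, Pearson's r of log2(CPM + 1) between members ranged from -0.43 (St6galnac5 and Strip2) to 0.45 (Ptpru and Strip2), a description over sums that share libraries.

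**Figure D3:**
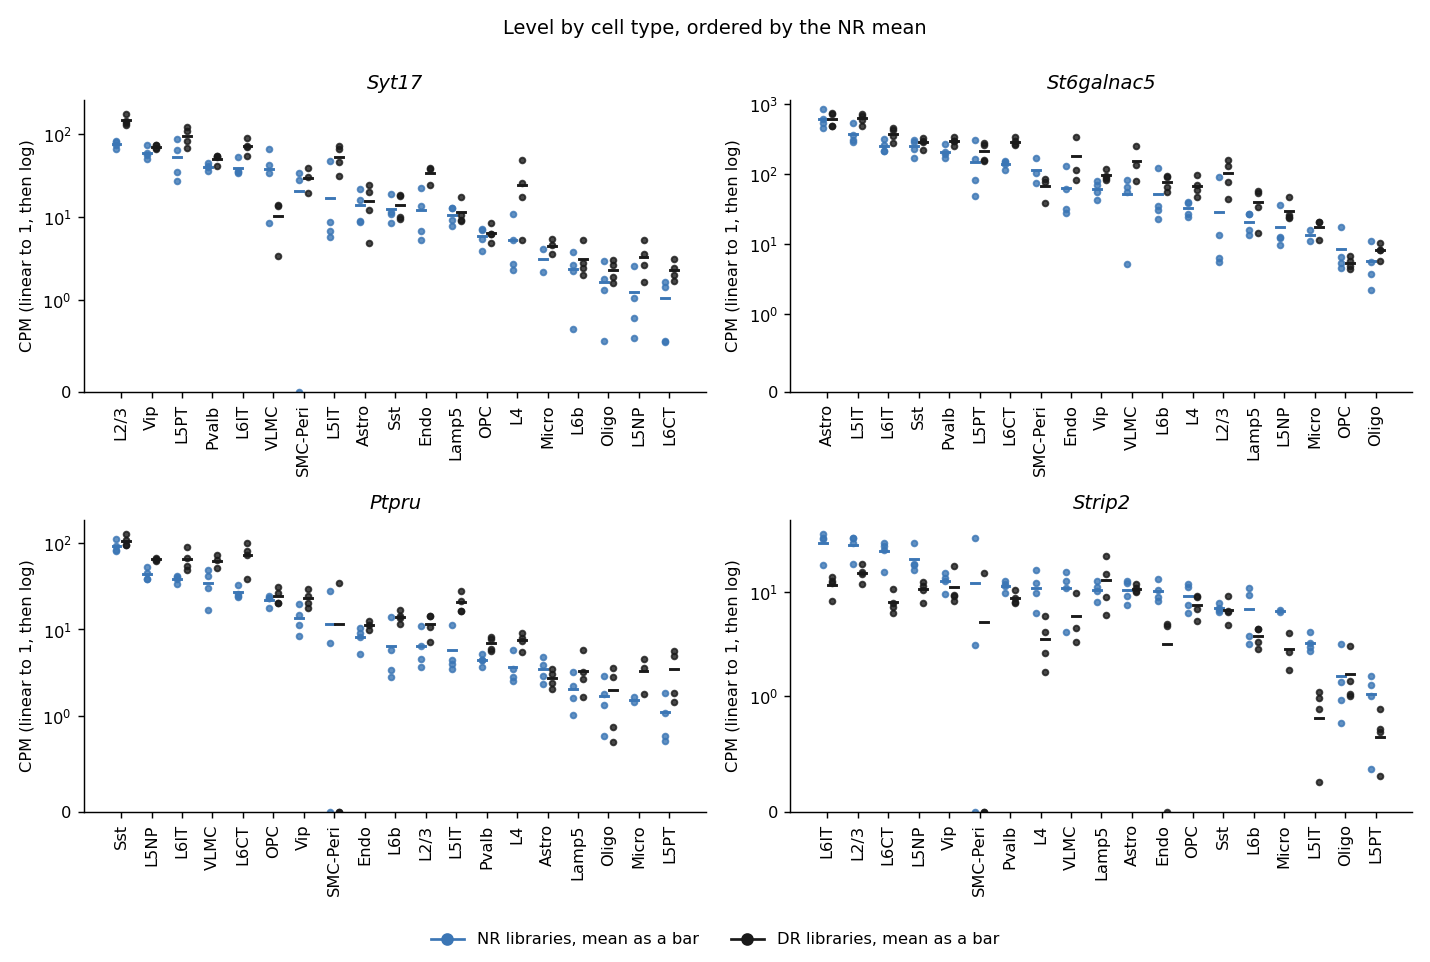
CPM of each gene by cell type (linear up to 1, then a log axis), types ordered by the NR mean, with 1 point per library of at least 10 nuclei and bars for the means of NR (blue) and DR (black) libraries. Syt17 starts at L2/3, St6galnac5 at astrocytes (613 CPM), Ptpru at Sst interneurons (92.7 CPM) and Strip2 at L6IT, and chandelier cells are left out for too few nuclei.

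The share of nuclei with a UMI of a gene was taken after thinning each nucleus to 3000 UMIs. It rises with RNA per nucleus as well as with the number of nuclei that hold the RNA. In L2/3, Syt17 was detected in 17.5% ± 1.56 (SD, n = 2) of nuclei in NR GR-Con, 20.6% ± 0.315 in NR GR-KO, 32.5% ± 2.79 in DR GR-Con and 35% ± 3.58 in DR GR-KO. The NR GR-KO female alone was at 20.4%. Without thinning the group means were 57.3%, 73.3%, 81.3% and 79.3%. In oligodendrocytes the thinned means were 0.47% to 0.947%, at median depths of 7040 to 15571 UMIs against 18144 to 37731 UMIs in L2/3. Strip2 in L2/3 was detected in 9.51% ± 0.632, 6.51% ± 1.81, 4.63% ± 1.57 and 4.39% ± 0.116 of nuclei in the same order of groups, against 0.183% to 0.756% in oligodendrocytes, and the NR GR-KO female alone was at 7.79%. Syt17 in L6CT was detected in 0.0626% to 0.715% of nuclei, no more than in oligodendrocytes, and is read as background there. Up to 23 excitatory nuclei per library had fewer than 3000 UMIs and were left out.

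After thinning, St6galnac5 was detected in 1.62% of L2/3 nuclei in NR GR-Con and in 10% in DR GR-Con (group means). Its L2/3 UMIs sat in few nuclei under both rearings. The 5% of L2/3 nuclei richest in the gene held 54.2% to 83.8% of its UMIs in each library. In GR-Con this share was 76.4% and 79.5% in NR and 64.2% and 71% in DR. Across the other excitatory types this share was 70.6% or more in L5NP, 28.8% to 72.8% in L6b, 37.4% to 56.7% in L4, 20.2% to 33% in L5PT, 18% to 24.4% in L6CT, 16.7% to 21.8% in L6IT and 15% to 18.3% in L5IT, and it is larger where fewer UMIs of a gene are counted. For the other members in L2/3 this share was 48.2% to 79% (Ptpru), 30.7% to 44.9% (Strip2) and 16.8% to 23.9% (Syt17). For Syt17 in L4 it was 37.7% to 100%. In L2/3 a single nucleus held up to 120 UMIs of St6galnac5. Nuclei with 5 or more UMIs made up 0.372% and 0.237% of L2/3 in NR GR-Con, 11.7% and 5.55% in DR GR-Con, 11.3% and 2.99% in NR GR-KO and 14.9% and 5.89% in DR GR-KO. Both NR GR-Con libraries were below the other 6. In the 6 libraries with at least 50 such nuclei, the genes whose lowest log2 ratio over L2/3 nuclei without the gene was greatest were Il1rapl2 (log2 ratio 3.61 to 6.35), Sgcd (2.89 to 5.72), Kcnab1 (2.69 to 4.34), Plcxd3 (2.54 to 4.16) and Arsj (1.95 to 2.99). Il1rapl2 is among the L5IT markers used here. These ratios were taken after 5 CPM was added to both levels, which pulls those of scarce genes towards 0. Slc17a8, Syt6, Fezf2, Chrna6, Oprk1, Osr1, Cplx3, Nxph4, Ccn2, Scnn1a and Rspo1 were under 5 CPM in both sets of nuclei. No presence or absence of a difference is read from their ratios. Scnn1a in the DR GR-KO male, for example, was at 3.01 against 0.276 CPM. The other L5IT markers, Deptor (0.71 to 1.74) and Etv1 (0.05 to 0.81), were also higher. Of the L5NP markers, Tshz2 (1.23 to 6.19, above Il1rapl2 in 2 libraries) and Vwc2l (1.33 to 3.11) were higher and Slc17a8 was scarce (-0.04 to 0.11). Of the L6CT markers, Hs3st4 (0.41 to 2.95) and Foxp2 (0.03 to 1.26) were higher in each library and Syt6 was scarce (-0.12 to 0.42). Of the L5PT markers, Bcl11b (0.40 to 2.55) was higher, and Fezf2 (-0.07 to 0.24) and Chrna6 (-0.01 to 0.03) were scarce. Of the L6IT markers, Sulf1 ranged from -0.97 to 0.43, and Oprk1 (-0.04 to 0.06) and Osr1 (-0.02 to 0.30) were scarce. The L6b markers were all scarce (Cplx3 -0.05 to 0.30, Nxph4 -0.02 to 0.03, Ccn2 -0.17 to 0.05). The L2/3 markers Cux2 (-0.86 to -0.09) and Rasgrf2 (-2.27 to -0.38) were lower, and Otof ranged from -1.61 to 0.10. Of the L4 markers, Rorb was lower (-2.13 to -0.40), and Scnn1a (0.17 to 0.60) and Rspo1 (-0.05 to 0.20) were scarce. The excitatory marker Slc17a7 differed by -0.51 to -0.02. The median depth of these nuclei was 20544 to 40579 UMIs in the 6 libraries, above that of L2/3 nuclei without the gene in each (18098 to 37703 UMIs).

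Il1rapl2 moved with St6galnac5 across libraries of L2/3. It was at 8.68 and 8.28 CPM in NR GR-Con, 220 and 40.4 CPM in DR GR-Con, 100 and 30.4 CPM in NR GR-KO and 143 and 73.2 CPM in DR GR-KO. When every L2/3 nucleus with a UMI of Il1rapl2 was left out, a step added after the data were seen, St6galnac5 was at 5.88 and 5.35 CPM in NR GR-Con, 48.2 and 27.6 CPM in DR GR-Con, 51.5 and 12.2 CPM in NR GR-KO and 84 and 36.8 CPM in DR GR-KO. The levels were lower and NR GR-Con stayed lowest, but the NR GR-KO male then lay above both DR GR-Con libraries. The step left out unlike shares of L2/3 nuclei. These were 9.57% and 8.77% in NR GR-Con, 19.1% and 22.1% in DR GR-Con, 33.1% and 32.8% in NR GR-KO and 16.9% and 13.9% in DR GR-KO. In the NR GR-KO female, nuclei left out and kept were close (15.5 and 12.2 CPM of St6galnac5). Whether nuclei of another layer were placed in L2/3 was not tested.

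**Figure D4:**
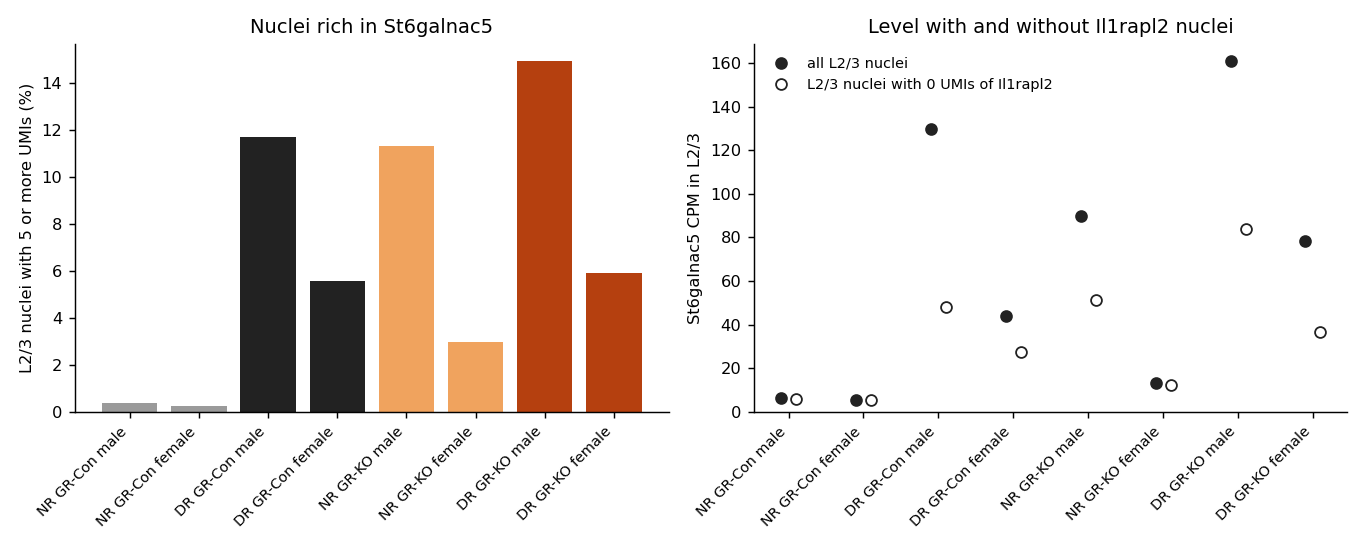
Left, percent of L2/3 nuclei with 5 or more St6galnac5 UMIs in each library. Right, St6galnac5 CPM in all L2/3 nuclei (filled) and in those with 0 UMIs of Il1rapl2 (open). NR GR-Con libraries are lowest in both panels, and the NR GR-KO male (11.3% of nuclei) lies with the DR libraries.

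The genotype contrasts share their GR-Con libraries with the choice of genes and are given as estimates only. Under normal rearing, GR-KO lay above GR-Con for Syt17 in 6 of 6 types fitted, for St6galnac5 in 8 of 8 and for Ptpru in 8 of 8, and below it for Strip2 in 8 of 8. The median log2 differences were 1.38, 0.87, 0.76 and -0.49. Without the NR GR-KO male the medians were 1.06, 0.31, 0.04 and -0.28, with GR-KO above GR-Con in 7 of 7, 7 of 8, 5 of 8 and 1 of 8 types. The NR GR-Con libraries enter both this contrast and the one that chose the genes, so the choice favoured these signs in advance. The DR GR-Con libraries likewise enter the contrast after dark-rearing, where the choice favoured the opposite signs. Shares over all genes are not given for these counts, which are not read as results about the members. After dark-rearing the signs were mixed, with GR-KO above GR-Con in 3, 7, 4 and 3 types and median differences of -0.07, 0.16, 0.09 and -0.08. The NR GR-KO libraries differed from each other. For Syt17 in L5IT the NR GR-KO male was at 46.9 CPM and the female at 8.77 CPM, against 5.77 and 6.68 CPM in NR GR-Con.

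A comparison of genotypes that used the 8 libraries together and adjusted for rearing was added after the data were seen. Its test is used here for astrocytes, the cells that the vector targets. In excitatory types its GR-Con libraries entered the choice of genes, so values there are estimates only, that furthest from 0 relative to its error being -0.98 ± 0.22 for Strip2 in L4. Syt17 in astrocytes was at 8.63 and 8.81 CPM in NR GR-Con and at 12.1 and 4.86 CPM in DR GR-Con, against 16.2 and 21.6 CPM in NR GR-KO and 24.3 and 20.2 CPM in DR GR-KO. All 4 GR-KO libraries lay above all 4 GR-Con libraries (log2 difference 1.22 ± 0.25, adjusted p = 9.8e-05, edgeR likelihood ratio test, where 1.9% of genes passed as higher). St6galnac5 in astrocytes was at 536, 453, 492 and 490 CPM in GR-Con and at 845, 618, 728 and 748 CPM in GR-KO, in the order NR male, NR female, DR male and DR female, again without overlap (0.55 ± 0.13, adjusted p = 8.8e-04). Both passed by the quasi-likelihood test (adjusted p = 0.024 and 0.017) and without each library in turn (1.33 and 0.48 without the NR GR-KO male). Ptpru (0.08, adjusted p = 0.98) and Strip2 (-0.29, adjusted p = 0.58) did not pass. The excitatory marker Slc17a7 was at 15.3 to 26.5 CPM in GR-Con astrocytes and at 18.9 to 33.9 CPM in GR-KO astrocytes, and its part was not tested.

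**Figure D5:**
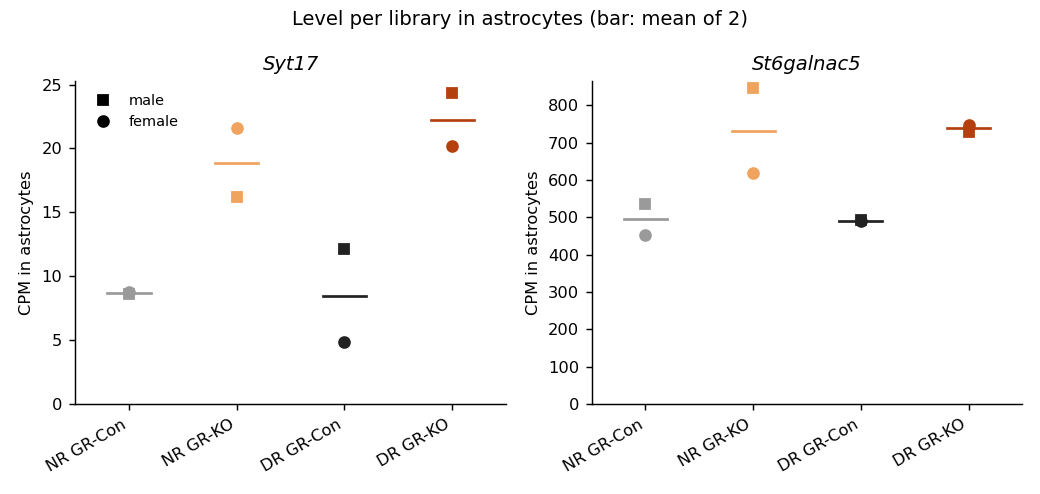
CPM of Syt17 and St6galnac5 in astrocytes by group, 1 point per library (squares male, circles female) with the mean of 2 as a bar. For both genes the 4 GR-KO points lie above the 4 GR-Con points, with Syt17 at 16.2 to 24.3 CPM against 4.86 to 12.1 CPM.

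The relatives of each member were counted over the same 8 excitatory types, in which 2.22% of all pairs passed as higher and 2.15% as lower in GR-KO. By the quasi-likelihood test 1 of the synaptotagmin pairs, 1 of the sialyltransferase pairs, 1 of the phosphatase pairs and 0 of the STRIPAK pairs passed, so the calls named below rest on the likelihood ratio test. Without the NR GR-KO male, with 1 NR library left, 16 synaptotagmin pairs passed as higher and 9 as lower, 19 and 6 sialyltransferase pairs, 14 and 4 phosphatase pairs and 6 and 2 STRIPAK pairs, where 4.16% of all pairs passed as higher and 3.42% as lower. In that fit the calls of Syt6 in L5PT (1.10, adjusted p = 0.69) and Syt14 in L4 (0.36, adjusted p = 0.09) were lost, and the other calls of the genes named below held. Of 19 synaptotagmins and related C2 proteins, 17 were tested in GR-KO, and of 130 gene and type pairs 8 passed as higher in DR and 6 as lower (median log2 fold change 0.09). Syt6 rose in L5PT, L6b and L6CT. In L5PT it was scarce, at 0.126 and 0.741 CPM in NR and at 1.23 and 1.97 CPM in DR. In L6CT it was at 84.1 and 96 CPM in NR and at 214 and 206 CPM in DR (1.24 ± 0.15, adjusted p = 1.5e-12). Syt10, which takes part in activity-dependent secretion, fell in L2/3 (-1.09 ± 0.19, adjusted p = 1.2e-06) and L6CT, and Syt14 rose in L2/3 and L4 (0.51 and 0.52). In GR-Con, Syt10 in L2/3 was at 33.2 and 36.1 CPM in NR and at 43.1 and 32.9 CPM in DR.

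Among 24 sialyltransferases and ganglioside genes, 23 were tested in GR-KO, and 10 of 164 pairs passed as higher and 3 as lower (median 0.16). St6gal1, which adds α2,6-linked sialic acid to glycoproteins, rose in L5IT, L5PT, L6CT and L6IT. In L5IT it was at 16.7 and 21.1 CPM in NR and at 41.3 and 35.3 CPM in DR (1.03 ± 0.21, adjusted p = 2.2e-04). Its estimates in GR-Con were 0.43 in L5IT, 0.33 in L5PT, 2.11 in L6CT and 1.83 in L6IT. In L5IT of GR-Con it was at 25.9 and 25.1 CPM in NR and at 15.9 and 53.4 CPM in DR. St3gal1, an α2,3-sialyltransferase of O-glycans, rose in L5IT (0.64 ± 0.18) and in L6IT, from 9.28 and 8.61 CPM to 18.2 and 17.8 CPM (1.02 ± 0.17, adjusted p = 1.1e-06).

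Of 20 receptor tyrosine phosphatases, 19 were tested in GR-KO, and 7 of 139 pairs passed as higher and 2 as lower (median 0.12). Ptprm, a MAM-domain relative of Ptpru that binds itself between cells, rose in L2/3 (1.19 ± 0.41) and in L4, from 156 and 171 CPM to 275 and 285 CPM (0.84 ± 0.14, adjusted p = 1.6e-06). Ptprz1 fell in L4 (-0.60 ± 0.18) and L6CT (-0.73 ± 0.24), whereas its estimates in GR-Con were 0.40 and 0.08. Of 18 STRIPAK genes all were tested, and 5 of 143 pairs passed as higher and 0 as lower (median -0.01, edgeR likelihood ratio test). Ppp2r1b, a scaffold subunit of protein phosphatase 2A, rose in L4, L6CT and L6IT (0.94, 0.75 and 0.73), opposite in direction to Strip2.

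Genes whose pattern over the 64 excitatory sums was among the most like that of each member, out of 10237 genes with a mean of at least 5 CPM, were Palmd, Taok3 and Ryr1 for Syt17 (Pearson's r of 0.91, 0.90 and 0.88), Pigk, Cdyl2 and Sv2b for St6galnac5 (0.90, 0.79 and 0.79), Ap2a2 and Slit1 for Ptpru (0.90 and 0.88) and Tbce, Gpm6a and Wipf3 for Strip2 (0.83, 0.77 and 0.76). Pigk is the gene that overlaps St6galnac5 on the opposite strand. In L5IT of GR-Con it was at 103 and 96.2 CPM in NR and at 169 and 128 CPM in DR, and in L2/3 at 48.4 and 47 CPM in NR and at 73.2 and 55.9 CPM in DR. Its DR differences in GR-KO ranged from -0.16 (L5PT) to 0.43 (L6CT), or from -0.43 to 0.46 without the NR male, and it was 0.64 to 1.75 higher on the log2 scale in the L2/3 nuclei rich in St6galnac5. The strand setting of the counting is not given in the sources used here beyond the statement that defaults were used, so reads of the 2 genes cannot be told apart with certainty, and this was not tested.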

How the data were processed

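The study reported here measured nuclear RNA in V1 of 8 mice with 10x Genomics 3′ libraries. According to the labels and methods, the authors sorted DRAQ5-positive nuclei, aligned reads to mm10 with Cell Ranger 8.0.1 and a custom annotation holding the vector, and removed nuclei with few or very many counts, predicted doublets (DoubletFinder) and clusters without markers in Seurat 5.3.0. The deposited matrix holds UMI counts without normalization, and the deposited cell table gives UMI counts per nucleus, the percent of mitochondrial UMIs, library, sex and cell type, all used as deposited. All 102330 column sums equalled the table's UMI counts. The methods also state that GFP-negative nuclei were kept, which the labels do not say.

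UMI counts were summed per library and cell type and analysed in R 4.3.3 by the likelihood ratio test of edgeR 4.0.16 (glmLRT, two-sided, TMM factors, low genes removed by filterByExpr) where each library had at least 10 nuclei. P-values were adjusted by Benjamini-Hochberg over all genes tested within a type, with a threshold of 0.05. Standard errors were derived from the fold change and its likelihood ratio statistic. With 2 animals per group, p-values weigh a difference against a spread between libraries that is estimated partly from the other genes. CPM were computed on summed counts and are compared between types and groups, not between genes. The quasi-likelihood test, DESeq2 1.42.0, RLE factors, no filter, a sex term, all libraries in 1 fit and leaving out each library were tried. The fits were tried on simulated data with the same dispersion for every gene and changes placed only in well counted genes. That trial does not give their error rate for genes that are scarce or vary more between libraries. The members, gene lists and comparisons were chosen with earlier results of these data known. Named relatives passed in at least 2 excitatory types in a single direction in GR-KO (at most 4 per list, by number of types and then size). Genes alike in pattern were the 3 with the highest Pearson's r of log2(CPM + 1). Some results are not reported here.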

Additional observations from a re-analysis of the deposited data

Results flagged for a closer look

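Both of the following results differed between groups of cells by a direct test, in the GR-KO libraries. The DR difference of Strip2 varied between the 8 excitatory types (adjusted p = 7.3e-05, edgeR likelihood ratio test). The quasi-likelihood test gave an adjusted p of 0.1. Among the 6 types fitted separately, the greatest falls were in L5IT (-2.12) and L4 (-1.80) and the smallest in L2/3 (-0.63). L6b, which was not fitted separately, had means of 3.46 CPM in NR and 3.64 CPM in DR. The L5IT value rests on 8 and 2 UMIs in DR, and was -1.41 without the DR GR-KO female and -3.45 without the DR GR-KO male. For Syt17 both DR libraries lay above both NR libraries in the excitatory sums (60.5 and 93.9 CPM against 36 and 42.3 CPM). These sums were mostly L2/3, with 6049 to 9175 Syt17 UMIs per library, where no other excitatory type held more than 1194. The DR difference of Syt17 was 0.87 greater on the log2 scale in the excitatory than in the inhibitory sums (adjusted p = 0.0014, edgeR likelihood ratio test). The adjusted p was 0.23 by the quasi-likelihood test, and without the DR GR-KO male the difference was 0.62 (adjusted p = 0.14).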

How the results depend on the processing

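No paired analysis was possible because the library names do not carry the replicate number of the labels. Sex, which each group's libraries do carry, was fitted as a term instead. With 2 libraries per group, single libraries and the choice of test decided much. The count of 8 passing pairs in excitatory types of GR-KO was 8 with DESeq2 (Strip2 in L5IT had no adjusted p and L6IT passed), RLE factors or no filter and 9 with all libraries in 1 fit, but 2 by the quasi-likelihood test and 17 with a sex term, and ranged from 6 to 21 when each library was left out. The 2 passing pairs in other types were 0 by DESeq2, by the quasi-likelihood test and with all libraries in 1 fit (where VLMC could not be fitted), 6 with a sex term (5 higher and 1 lower), and 1 to 6 leaving out a library. For the difference between excitatory types, 1 member passed, 0 by the quasi-likelihood test, 2 (Strip2 and Ptpru) without L6b and L5NP, and 1 to 4 leaving out a library. For excitatory against inhibitory neurons, 1 member passed, 0 by the quasi-likelihood test and 0 to 2 leaving out a library. The 28 pairs in GR-Con were 18 to 26 leaving out a library. GR-KO lay on the DR side of GR-Con in 18 pairs after dark-rearing, and in 11 to 24 leaving out a library. By the quasi-likelihood test the passing pairs of synaptotagmins, sialyltransferases, phosphatases and STRIPAK genes were 1, 1, 1 and 0 in place of 14, 13, 9 and 5. Shares over all genes are not given for the changed settings in other types, in the difference tests or in GR-Con, nor for the signs of the genotype contrasts. Those counts are therefore not read as results about the members.

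Of the 28 estimates in GR-KO, 7 changed sign under some setting and none of these had passed. Leaving out each library gave ranges of -0.52 to 1.73 (Syt17, L4), -0.11 to 0.69 (Syt17, L5PT), -0.52 to 0.46 (St6galnac5, L5PT), -0.03 to 1.53 (St6galnac5, L5NP), -0.69 to 1.66 (St6galnac5, L6b), -0.21 to 0.75 (Ptpru, L2/3) and -0.004 to 2.04 (Ptpru, L5PT). The quasi-likelihood fit gave -0.05 for St6galnac5 in L6b (0.03 by the likelihood ratio fit). The rise in the share of L2/3 nuclei from NR to DR in GR-KO was 14.4 percentage points for Syt17 at 3000 UMIs, 6.14 at 1000 UMIs and 5.94 without thinning. For Ptpru it was 0.581, and -3.34 without thinning. For Strip2 it was -2.13, -0.794 at 1000 UMIs and -17.7 without thinning. NR nuclei were deeper than DR nuclei in GR-KO, and apart from these changes of construction the causes were not tested.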
